A study of Mus musculus with 4 samples.

Results

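Cholesterol and fatty acid synthesis was followed through 33 listed genes, of which 21 belong to cholesterol synthesis and its control and 12 to fatty acid synthesis, desaturation and elongation by the Elovl enzymes. A gene was read through the probe set with the highest mean among those that the platform annotation pairs with that gene alone. This gave a value for 32 of the 33 genes, out of 18193 genes in all, with 20 in the cholesterol branch and all 12 in the fatty acid branch. Acat2 had no such probe set in the annotation used here, so its expression was not analysed, though its promoter was counted below. No filter on low values was applied, so all 32 were tested. The cells were T29, a mouse thymic lymphoma cell line, and RNA was hybridised to Affymetrix expression arrays. There were 2 arrays of cells treated with DMSO, the solvent control, and 2 arrays of cells given the gamma-secretase inhibitor (GSI) MRK003. The labels write the dose as 5 mM and the time as 36 h, in a text shared word for word by all 4 samples, and only the titles say which cells received DMSO. Both groups are the same single cell line, no genotype difference is given, and nothing in the labels says whether replicates were separate cultures. The p-values therefore measure the spread between these arrays, which may be technical.

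Cholesterol is built from acetyl units through mevalonate, squalene and lanosterol, and the genes of this route are switched on together by the transcription factor SREBP-2, encoded by Srebf2. SREBP proteins are held in the endoplasmic reticulum by the Insig proteins while sterols are plentiful and are released by proteolysis when sterols run low. Fatty acids are built from cytosolic acetyl units by Acly, Acaca and Fasn, are then desaturated by Scd and Fads enzymes and lengthened by Elovl enzymes, and much of this branch responds to SREBP-1, encoded by Srebf1. Growing lymphoid cells use both routes to make membranes. Gamma-secretase cleaves the Notch receptors, among other membrane proteins.

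To show the sequence setting of the genes described below, 250 bases before the transcription start were read from RefSeq (GRCm38.p6). The table used held 20 such promoters for 17 of the 21 listed cholesterol genes, Acat2 among them. It held 11 for 8 of the 12 fatty acid genes. None was held for Elovl3, Scd1, Scd2 and Fads1, nor for Sqle, Fdps, Fdft1 and Stard4, so these promoters were not searched. Those of Insig1 and Tm7sf2 are shown because these were the cholesterol genes past the test threshold, Hmgcs1 because it held the sterol element searched for, and Fasn and Elovl6 as fatty acid genes for comparison. Insig1 lies at chr5:28071162-28071411 on the plus strand, Tm7sf2 at chr19:6067851-6068100 on the minus strand and Hmgcs1 at chr13:119690101-119690350 on the plus strand. Fasn lies at chr11:120824548-120824797 on the minus strand and Elovl6 at chr3:129532136-129532385 on the plus strand. Each is written 5′ to 3′ in the direction of its gene, and capitals mark the CCAAT box (CCAAT), the E box (CACGTG) and the sterol element (TCACNCCAC), on either strand.
Insig1: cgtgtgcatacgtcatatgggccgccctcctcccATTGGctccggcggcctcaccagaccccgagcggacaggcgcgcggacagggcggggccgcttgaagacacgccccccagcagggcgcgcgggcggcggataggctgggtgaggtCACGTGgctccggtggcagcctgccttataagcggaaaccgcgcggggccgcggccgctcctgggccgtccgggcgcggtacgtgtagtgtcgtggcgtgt
Tm7sf2: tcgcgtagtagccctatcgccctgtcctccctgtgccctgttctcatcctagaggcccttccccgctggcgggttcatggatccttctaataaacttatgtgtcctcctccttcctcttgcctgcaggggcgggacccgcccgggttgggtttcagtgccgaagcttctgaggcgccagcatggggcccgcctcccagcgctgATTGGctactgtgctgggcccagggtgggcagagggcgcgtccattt
Hmgcs1: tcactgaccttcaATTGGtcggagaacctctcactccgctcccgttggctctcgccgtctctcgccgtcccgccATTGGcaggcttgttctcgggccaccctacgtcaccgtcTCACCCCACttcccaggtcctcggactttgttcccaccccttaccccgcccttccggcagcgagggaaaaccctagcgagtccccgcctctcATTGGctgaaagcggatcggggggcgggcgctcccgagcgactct
Fasn: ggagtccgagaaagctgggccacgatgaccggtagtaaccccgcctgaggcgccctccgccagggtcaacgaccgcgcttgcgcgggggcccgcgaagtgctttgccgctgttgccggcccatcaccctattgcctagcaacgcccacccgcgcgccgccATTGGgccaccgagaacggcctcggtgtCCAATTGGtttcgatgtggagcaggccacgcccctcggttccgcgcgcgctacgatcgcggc
Elovl6: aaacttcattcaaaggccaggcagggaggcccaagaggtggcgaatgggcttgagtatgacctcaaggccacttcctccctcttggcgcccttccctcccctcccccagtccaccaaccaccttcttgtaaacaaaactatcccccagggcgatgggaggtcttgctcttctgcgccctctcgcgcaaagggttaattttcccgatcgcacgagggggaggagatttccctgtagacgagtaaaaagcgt

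A CCAAT box, the site of the factor NF-Y that commonly assists SREBP, was found in 16 of the 20 cholesterol promoters (80%) and in 5 of the 11 fatty acid promoters (45.5%), against 33.8% of all 32851 promoters of the same length. The E box was found in 4 of 20 (20%) and 1 of 11 (9.09%), against 6.02% of all. The sterol element was found in 1 of 20 (5%), that of Hmgcs1, and in 0 of 11, against 1.05% of all. Its match in Hmgcs1 began 137 bases before the start. In the Fasn promoter 2 of the 3 CCAAT matches overlap each other. Elovl6 held none of the 3 motifs. The GC box (GGGCGG), bound by Sp1 and not in capitals, was found in 17 of 20 (85%) and 6 of 11 (54.5%), against 32.7% of all. A core of the motif bound by RBPJ, the DNA-binding partner of Notch (TGGGAA), was found in 4 of 20 (20%) and 4 of 11 (36.4%), against 21.6% of all. The median GC content was 62.8% for the cholesterol promoters, 63.2% for the fatty acid promoters and 52.4% for all, and its part in these shares was not tested. A match describes letters and shows no binding. Only exact matches were counted, so a variant of a motif, such as of the sterol element, would be missed.

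With GSI, cholesterol synthesis genes sat slightly higher as a group, while the fatty acid branch split. Of 20 cholesterol genes, 19 had a higher mean with GSI, as did 47% of all genes, with a median difference of 0.28 on the log2 scale (1.21-fold), against a median of -0.012 over all 18193 genes. In the branch 2 passed at an adjusted p under 0.05, Insig1 and Tm7sf2, both upwards, where 2.56% of all genes were called higher (limma, Benjamini-Hochberg over all genes). Without adjustment 9 were higher and 0 lower at p under 0.05, against 10.8% and 10.7% of all genes. Of 12 fatty acid genes, 6 had a higher and 6 a lower mean, the median was 0.0050, and 1 passed, Elovl3, downwards, where 1.56% of all genes were called lower. The cholesterol list was named with earlier results of these arrays known, so its direction is not independent evidence.

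**Figure D1:**
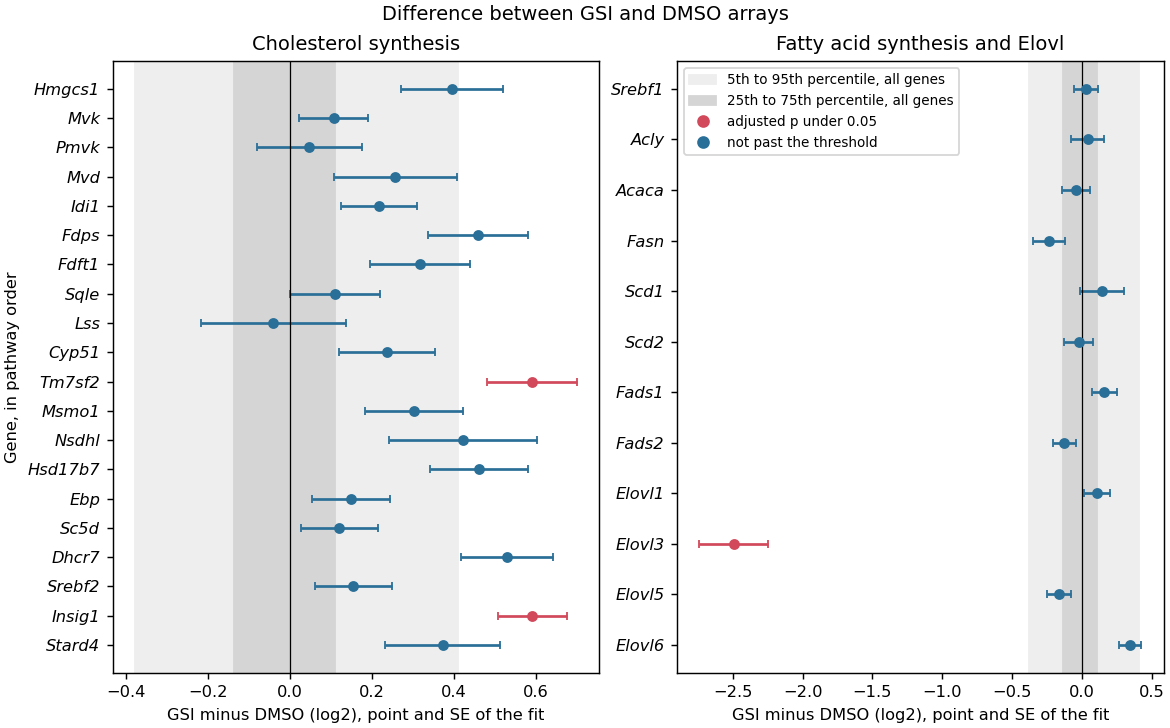
Difference between the GSI and DMSO means of each gene (log2, point) with the standard error of the limma fit (bar), for 20 cholesterol genes on the left and 12 fatty acid and Elovl genes on the right, which has a wider axis. Grey bands span the middle of all 18193 genes, and red marks the 3 genes past the threshold, Insig1, Tm7sf2 and Elovl3.

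The quartiles of the difference over all genes were -0.14 and 0.11, and its 95th percentile was 0.41. Of the 20 cholesterol genes, 16 lay above the upper quartile, 6 of them above the 95th percentile, and 0 below the lower quartile. Of the 12 fatty acid genes, 3 lay above the upper quartile, 6 between the quartiles and 3 below. The cholesterol genes thus lay toward the upper side of the distribution, although most did not pass singly. The difference between the branches was not tested.

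Insig1, which encodes the protein that retains SREBP in the endoplasmic reticulum and is itself a target of SREBP, had the largest difference of the branch (NCBI gene 231070). Its log2 values were 8.42 and 8.48 with DMSO and 9.05 and 9.03 with GSI. The arrays of each group lay close together and the groups were well apart, at 8.45 ± 0.046 and 9.04 ± 0.014 (SD, n = 2), a 1.51-fold rise (log2 difference 0.59, SE 0.084; limma, adjusted p = 0.0255). Srebf2 itself, encoding SREBP-2, measured 9.54 and 9.67 with DMSO and 9.81 and 9.72 with GSI, a difference of 0.15 (limma, adjusted p = 0.408). Its GSI arrays lay just above its DMSO arrays. Stard4, encoding a carrier of sterols between membranes, measured 9.76 and 10.09 with DMSO and 10.40 and 10.19 with GSI, a difference of 0.37 (limma, adjusted p = 0.203).

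The 6 enzymes of the mevalonate steps all had higher means with GSI, with differences from 0.048 to 0.46 and a median of 0.24, and 0 of them passed (limma). Hmgcs1, the synthase that makes the precursor of mevalonate and whose promoter above holds the sterol element, measured 11.59 and 11.81 with DMSO and 12.22 and 11.98 with GSI. The difference of 0.40 (SE 0.12) had an adjusted p of 0.147 by limma, and its 4 other probe sets differed by 0.35 to 0.56. Fdps, which makes farnesyl diphosphate, the branch point to sterols and protein prenylation, measured 11.58 and 11.76 with DMSO and 12.26 and 12.01 with GSI, a difference of 0.46 (limma, adjusted p = 0.104). Its other probe set, at a mean of 2.77, differed by -0.12, and the mean of the pair gave 0.17 (limma, adjusted p = 0.406). In Hmgcs1 and Fdps, read by the chosen probe sets, all GSI arrays lay above all DMSO arrays, but the 2 GSI arrays were at least as far apart from each other as the lower of them was from the nearer DMSO array. Idi1, the isomerase of the isoprenoid units, measured 11.20 and 11.24 with DMSO and 11.51 and 11.37 with GSI, a difference of 0.22. Mvk, mevalonate kinase, measured 7.73 and 7.75 with DMSO and 7.88 and 7.81 with GSI, a difference of 0.11. The arrays overlapped between groups for Mvd, the decarboxylase (0.26), and for Pmvk, phosphomevalonate kinase (0.048).

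Between farnesyl diphosphate and lanosterol the 3 genes differed least, with a median of 0.11. Fdft1, squalene synthase, measured 10.05 and 10.04 with DMSO and 10.52 and 10.21 with GSI, a difference of 0.32 (limma, adjusted p = 0.211). Sqle, the epoxidase known as a rate-limiting step after squalene, differed by 0.11 and its arrays overlapped. Lss, lanosterol synthase, was the 1 cholesterol gene with a lower mean with GSI, at -0.040 with overlapping arrays, and its other 2 probe sets differed by 0.11 and -0.021.

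All 8 genes of the steps from lanosterol to cholesterol had GSI arrays that lay above both DMSO arrays, where 23.7% of all genes did so, and their median difference was 0.36. Tm7sf2, a sterol reductase of the endoplasmic reticulum and inner nuclear membrane (NCBI gene 73166), measured 7.49 and 7.74 with DMSO and 8.20 and 8.21 with GSI. It rose 1.51-fold, from 7.61 ± 0.18 to 8.21 ± 0.012 (SD, n = 2; log2 difference 0.59, SE 0.11; limma, adjusted p = 0.0478). Lbr, the lamin B receptor, which carries the same reductase activity, was on a separate list and measured 11.71 and 11.79 with DMSO and 12.06 and 12.07 with GSI, a difference of 0.31 (limma, adjusted p = 0.110). In both genes each GSI array lay above each DMSO array. Dhcr7, the last reductase of the route, measured 9.17 and 9.33 with DMSO and 9.89 and 9.68 with GSI, a difference of 0.53 (SE 0.11; limma, adjusted p = 0.0626).

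Hsd17b7, a keto reductase of the demethylation steps, measured 8.98 and 9.02 with DMSO and 9.61 and 9.32 with GSI, a difference of 0.46 (limma, adjusted p = 0.0985). Nsdhl, a dehydrogenase of the same steps, measured 9.08 and 9.17 with DMSO and 9.82 and 9.28 with GSI, a difference of 0.42 (limma, adjusted p = 0.254). In Nsdhl the first GSI array stood 0.54 above the second, which lay close to the DMSO arrays. Msmo1, the methyl oxidase, measured 10.12 and 10.28 with DMSO and 10.63 and 10.37 with GSI, a difference of 0.30. Cyp51, the demethylase that first acts on lanosterol, measured 9.67 and 9.78 with DMSO and 10.09 and 9.83 with GSI, a difference of 0.24 that was 0.090 as the mean of its probe sets. Smaller differences were seen in the isomerase gene Ebp (8.96 and 8.87 with DMSO, 9.14 and 8.99 with GSI) and the desaturase gene Sc5d (9.16 and 9.16, then 9.36 and 9.20), at 0.15 and 0.12. In 16 of the 20 cholesterol genes the GSI arrays lay above both DMSO arrays, and in 0 below, where 23.7% and 27.7% of all genes did so.

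**Figure D2:**
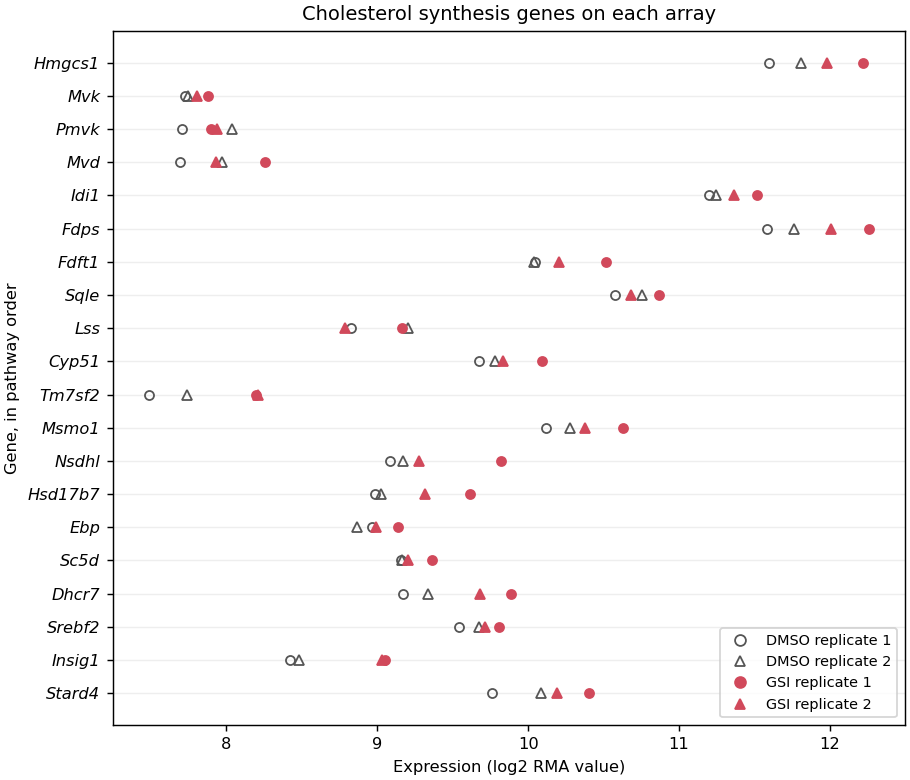
Expression of 20 cholesterol synthesis genes on each of the 4 arrays (log2 RMA value), in pathway order from Hmgcs1 to Dhcr7 and then Srebf2, Insig1 and Stard4. Open symbols are DMSO and filled symbols GSI, with circles for replicate 1 and triangles for replicate 2, and in most genes GSI replicate 1 is the highest array; levels of different genes are not comparable.

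The cholesterol genes also differed between arrays of the same treatment, and did so together. GSI replicate 1 lay above GSI replicate 2 in 18 of 20 genes by a median of 0.21, where 53.6% of all genes did so. DMSO replicate 2 lay above DMSO replicate 1 in 18 of 20 genes by a median of 0.15, where 44.2% of all genes did so. The median difference from GSI replicate 1 to DMSO replicate 1 was 0.49, while that from GSI replicate 2 to DMSO replicate 2 was 0.11, with 16 of 20 genes higher in the GSI array. The median of the branch was 0.15 without GSI replicate 1, 0.43 without GSI replicate 2, 0.20 without DMSO replicate 1 and 0.35 without DMSO replicate 2. The medians between arrays of one treatment were of the same order as the 0.28 between treatments, which is a difference of means. Between single arrays, GSI replicate 1 against DMSO replicate 2 gave 0.32, and GSI replicate 2 against DMSO replicate 1 gave 0.21. The 0.11 between the second replicates was smaller than both medians within a treatment. The control probe sets for RNA quality moved in part with this pattern: the 3′ minus 5′ difference of Tfrc was, in replicate order, 1.30 and 1.65 with DMSO and 1.66 and 1.36 with GSI. That of Gapdh was 0.018 and 0.068, then 0.057 and 0.026, in the same order of arrays, and that of Actb was 0.34 and 0.38, then 0.32 and 0.35. For Tfrc and Gapdh, DMSO replicate 2 and GSI replicate 1 had the higher values, as in the cholesterol genes, and their part in the result was not tested. Without any 1 of the 4 arrays 0 of the 20 passed (limma), while without adjustment 3 to 11 were higher and 0 lower at p under 0.05, against 6.82% to 8.85% of all genes higher and 6.13% to 9.45% lower. In these fits Insig1 kept a difference of 0.56 to 0.62 with an adjusted p between 0.143 and 0.248, and Tm7sf2 one of 0.47 to 0.72 with an adjusted p between 0.130 and 0.313 (limma).

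**Figure D3:**
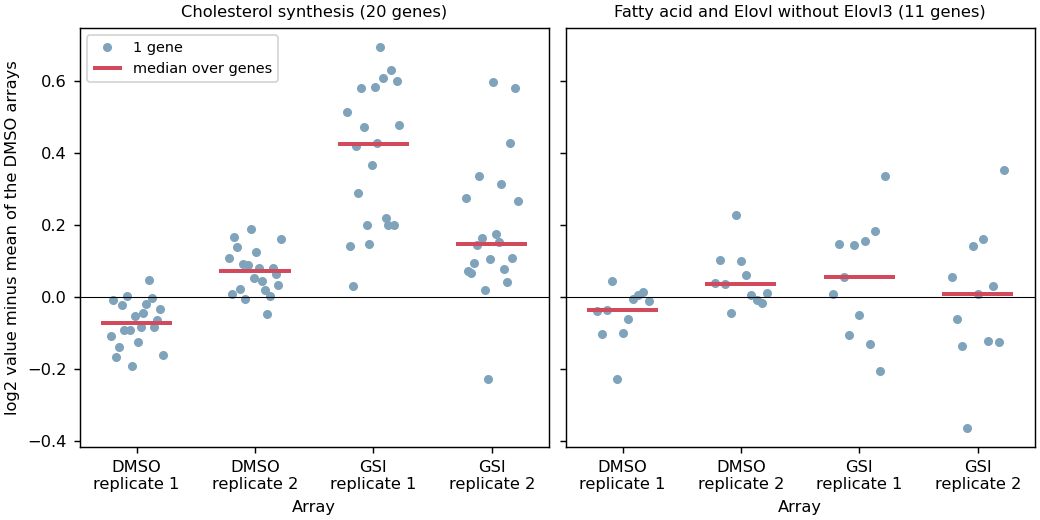
Values on each array minus the gene's mean over the DMSO arrays (log2), for 20 cholesterol genes on the left and 11 fatty acid genes without Elovl3 on the right; each point is a gene and red bars are medians over genes. The cholesterol genes sit highest on GSI replicate 1 and lowest on DMSO replicate 1. Of the 11 fatty acid genes, 8 were also lower on the first DMSO array than the second, by a median of 0.072. Against GSI replicate 1, 8 of the 11 were lower on that first DMSO array, by a median of 0.091. Between the GSI arrays, replicate 1 was the higher in 5 of the 11.

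Elovl3 stood apart from every other member. It encodes an elongase of very long chain fatty acids best known from brown fat, liver and sebaceous glands, and was read by 1 probe set (NCBI gene 12686). It measured 6.93 and 6.29 with DMSO and 3.88 and 4.35 with GSI. The groups were far apart against the gap within each, at 6.61 ± 0.45 and 4.12 ± 0.33 (SD, n = 2), a 5.63-fold fall (log2 difference -2.49, SE 0.25; limma, adjusted p = 0.00973). It ranked 11 among the falls of all 18193 genes. The GSI level lay below the array medians of 4.86 to 4.89, so the size of the fold is uncertain. The difference was -2.81 to -2.17 without 1 of the 4 arrays, with an adjusted p between 0.0769 and 0.162 in those fits (limma). Without any 1 array 0 of the 12 fatty acid genes passed, while without adjustment 1 to 2 were higher and 1 to 2 lower at p under 0.05, which is near the shares of all genes given above for these fits.

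No other elongase passed (limma), and whether Elovl3 differed from them was not tested. Elovl6, which lengthens the products of Fasn, measured 7.79 and 7.81 with DMSO and 8.13 and 8.15 with GSI. Its difference of 0.35 (SE 0.082; limma, adjusted p = 0.0819) was the largest upward one of the branch, and its other 2 probe sets differed by 0.48 and 0.23. Elovl5, an elongase of polyunsaturated chains, measured 11.39 and 11.36 with DMSO and 11.17 and 11.25 with GSI, a difference of -0.17. Elovl1, which makes saturated very long chains, measured 9.36 and 9.35 with DMSO and 9.54 and 9.39 with GSI, a difference of 0.11. The 2 groups did not overlap in any of the 4 measured elongases of the branch, 2 upwards and 2 downwards, where 51.4% of all genes did not overlap. Elovl2, Elovl4 and Elovl7, from a further list, lay below the array medians, at means of 2.87, 3.19 and 3.56, and differed by -0.027, -0.045 and -0.096.

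**Figure D4:**
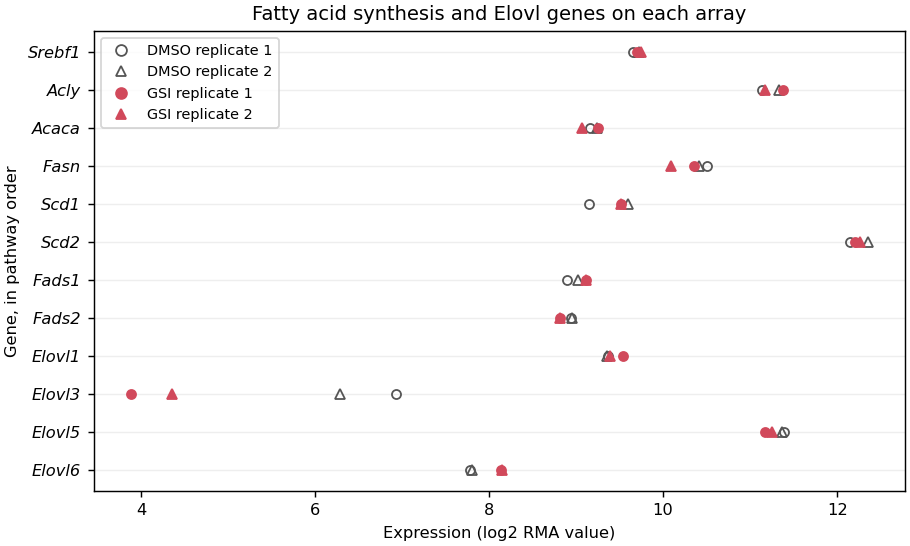
Expression of 12 fatty acid synthesis and Elovl genes on each of the 4 arrays (log2 RMA value), with symbols for treatment and replicate given in the key. Elovl3 has both GSI arrays far below its DMSO arrays, while the other genes have their 4 arrays within a narrow range.

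No gene of the core of fatty acid synthesis passed (limma). Fasn, the synthase, measured 10.50 and 10.41 with DMSO and 10.35 and 10.09 with GSI, a difference of -0.24 (SE 0.11; limma, adjusted p = 0.309). Acly, which supplies cytosolic acetyl units, measured 11.13 and 11.34 with DMSO and 11.38 and 11.18 with GSI, and Acaca, the carboxylase that commits them, differed by -0.041, both with overlapping arrays. Srebf1, which encodes SREBP-1, differed by 0.032 with overlapping arrays and a standard error of 0.086. Neither Srebf1 nor Srebf2 passed.

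Among the desaturases, Scd2, the stearoyl desaturase typical of non-hepatic tissues, measured 12.15 and 12.35 with DMSO and 12.20 and 12.26 with GSI, a difference of -0.022. Scd1, its relative, measured 9.14 and 9.60 with DMSO against 9.52 and 9.51 with GSI, so that its DMSO arrays differed more from each other than the treatments did (difference 0.14). Fads1 and Fads2 insert double bonds into polyunsaturated chains. Fads1 measured 8.89 and 9.02 with DMSO and 9.11 and 9.12 with GSI, a difference of 0.16. Fads2 measured 8.94 and 8.95 with DMSO and 8.81 and 8.82 with GSI, a difference of -0.13. The pair thus lay on opposite sides of zero without overlapping arrays, and neither passed (limma, adjusted p = 0.373 and 0.441). In the branch, 3 genes had both GSI arrays above and 4 below their DMSO arrays, where 23.7% and 27.7% of all genes did so.

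The same genes had other probe sets, not chosen to stand for them. Of 24 such probe sets of the cholesterol genes, 18 were higher with GSI, and of the 15 with a mean log2 value of at least 7, 15 were. Of 18 such probe sets of the fatty acid genes, 10 were higher, and 5 of the 10 with such a mean. The cut at 7 removed every lower one of the cholesterol genes. Among those removed, probe sets of Fdft1, Lss, Cyp51 and Sc5d had means of 5.21, 5.37, 5.86 and 5.77, above the probe set median of 4.88. These probe sets read the same genes on the same arrays, so they are not independent evidence. Probe sets pointed in both directions in 6 of the 13 cholesterol genes and in 1 of the 9 fatty acid genes that had several. When each of the 45037 probe sets was tested on its own, Elovl3 passed and 0 cholesterol probe sets did (limma), with adjusted p of 0.0515 for Insig1 and 0.0855 for Tm7sf2. In that test, 8 of the 20 probe sets that stand for the cholesterol genes were higher and 0 lower at p under 0.05 before adjustment.

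Of 16 further genes of sterol synthesis and the SREBP machinery that were measured, 1 rose (6.25%, against 2.56% of all genes) and 0 fell, with a median of 0.040 and 9 higher and 7 lower means. The rise was Npc2, a lysosomal carrier that hands cholesterol on to Npc1, at 11.11 and 11.07 with DMSO and 11.87 and 11.60 with GSI (1.56-fold; limma, adjusted p = 0.0447). Npc1 measured 6.30 and 6.31 with DMSO and 6.62 and 6.58 with GSI, a difference of 0.30 (limma, adjusted p = 0.114). Tmem97, which encodes a sterol-binding partner of Npc1, measured 8.83 and 8.91 with DMSO and 8.35 and 8.59 with GSI, the largest negative difference of the list at -0.41 (limma, adjusted p = 0.110). The groups did not overlap in any of these 3 genes, where 51.4% of all genes did not overlap. The partners of SREBP cleavage differed by -0.073 for the escort gene Scap, -0.099 for Insig2, 0.14 for the protease gene Mbtps1 and -0.19 for the protease gene Mbtps2.

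Of 9 measured genes of liver X receptors and sterol export, which act when sterols are plentiful, 1 fell (11.1%, against 1.56% of all genes) and 0 rose, with a median of -0.095. The fall was Abcg1, a sterol exporter, at 7.87 and 7.78 with DMSO and 6.998 and 7.26 with GSI (1.62-fold; limma, adjusted p = 0.0372). Averaging its 2 probe sets gave -0.52 and lost the call (limma, adjusted p = 0.103). Abca1, the related exporter, measured 4.07 and 3.92 with DMSO and 3.21 and 3.501 with GSI, a difference of -0.64 (limma, adjusted p = 0.0542) at levels below the array medians. The mean of its 3 probe sets differed by -0.18 (limma, adjusted p = 0.290). On the chosen probe sets of Abcg1 and Abca1 both GSI arrays lay below both DMSO arrays, where 27.7% of all genes did so. Abcg4, of the same list, went the other way. It measured 6.48 and 6.54 with DMSO and 6.57 and 6.62 with GSI, a difference of 0.088 (limma, adjusted p = 0.624).

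Of 28 further genes of fatty acid synthesis, elongation and activation, 1 rose (3.57%, against 2.56% of all genes) and 0 fell, with a median of -0.034. The rise was Acss1, which makes acetyl-CoA from acetate in mitochondria, at 6.62 and 6.38 with DMSO and 7.32 and 7.34 with GSI (1.78-fold, a log2 difference of 0.84; limma, adjusted p = 0.0186). The mean of its 3 probe sets differed by 0.46 (limma, adjusted p = 0.0429). Its cytosolic relative Acss2, a known SREBP target, measured 6.99 and 7.40 with DMSO and 7.69 and 7.61 with GSI, a difference of 0.46 (limma, adjusted p = 0.156). Gpam, which starts glycerolipid synthesis and is also a known SREBP target, measured 8.55 and 8.52 with DMSO and 8.13 and 8.19 with GSI, a difference of -0.37 (limma, adjusted p = 0.0719). In the elongation cycle that serves all Elovl enzymes, the reductase gene Tecr differed by 0.40 (limma, adjusted p = 0.118). Of the dehydratase genes of this cycle, Hacd1 differed by -0.53 (limma, adjusted p = 0.0638). Hacd2, Hacd3 and Hacd4 went the other way, at 0.15, 0.087 and 0.11. Npc2, Abcg1 and Acss1 had adjusted p between 0.105 and 0.274 without any 1 of the 4 arrays (limma).

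**Figure D5:**
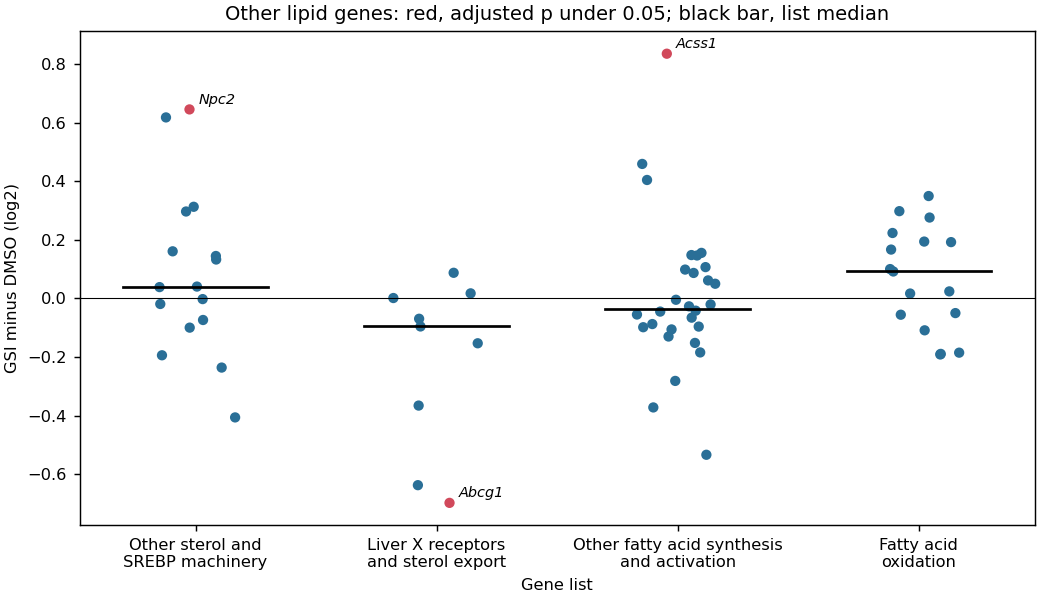
Difference between GSI and DMSO means (log2) for the measured genes of 4 further lipid lists, with each point a gene and each black bar the median of its list. Red points passed the threshold, Npc2 and Acss1 upwards and Abcg1 downwards.

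Facts of the arrays as a whole bear on these values as follows. Of all genes, 4.12% were called, and 10 of 10 measured Notch targets had lower GSI than DMSO arrays (27.7% of all genes), 8 of them past the threshold. Of 10 measured T lineage markers 9 lay above the probe set median of 4.88, and the summed log2 values were 98.3 and 98.7 with DMSO and 100.6 and 100.5 with GSI. Cd8a, Cd8b1, Cd4 and Thy1 rose, by 1.07, 0.97, 0.75 and 0.53 on the log2 scale, and Cd3g fell by 0.47 (limma, adjusted p from 0.0121 to 0.0409). Of the measured markers of other cells, 3 of 5 B cell, 4 of 6 myeloid, 3 of 4 erythroid, 4 of 6 stromal and 7 of 9 adipocyte, sebocyte and hepatocyte markers lay below that median. Of those above it, Ighm, an immunoglobulin chain gene, rose by 1.08, and Pdgfrb, a growth factor receptor of stromal cells, fell by 1.28 on the log2 scale (limma, adjusted p = 0.0293 and 0.00475). The summed log2 values of the adipocyte, sebocyte and hepatocyte list were 38.3 and 38.9 with DMSO and 37.1 and 36.5 with GSI, and without Fabp4 33.3 and 33.1 with DMSO and 33.9 and 32.9 with GSI. In that list Fabp4, a fatty acid carrier of adipocytes and macrophages, fell with GSI as Elovl3 did, from 5.00 and 5.81 to 3.23 and 3.56 (limma, adjusted p = 0.0220), while Adipoq, Ucp1 and Alb had means of 2.63, 3.64 and 3.93 and differed by 0.25, -0.072 and 0.056. The part of other cells in the results above was not tested, and in bulk RNA fewer cells of a type and less RNA per cell cannot be told apart.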

How the data were processed

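The authors deposited 1 table of log2 expression values, 1 per probe set and array, made with RMA per the submitters' processing notes. RMA corrects background, normalizes between arrays and summarises probes, so it compresses differences of dim probe sets and presumes few net shifts over all genes. The RMA version and any genome build were not given in the sources used here. From 45101 probe sets, 64 controls were left out, and 34945 of the remaining 45037 had 1 gene symbol, 932 several and 9160 none. Symbols were updated through gene identifiers to RefSeq (GRCm38.p6), which held 34741. The probe set with the highest mean stood for each of 18193 genes. The GSI and DMSO arrays were fitted in limma 3.58.1 under R 4.3.3 (lmFit, then eBayes; group as the only term, two-sided), with Benjamini-Hochberg adjustment over all genes and a threshold of 0.05. SD is over the 2 arrays of a group, SE is that of the moderated fit with 5.80 total degrees of freedom, and n counts arrays, whose small number limits precision.

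The members, the lists and the rule for naming genes were chosen with earlier results of these data known. All measured members were named. Values per array were given for called members, for those whose arrays did not overlap and for the 3 with the highest means in each branch. From the 4 further lipid lists called genes were named, or the 2 with the smallest p where none was called, and from the marker lists called genes, except Notch targets, which were counted. Others were added after their values were seen. They include Npc1, Tmem97, Gpam, Abca1, Abcg4, Lbr, Acss2, Tecr, the Hacd genes, the SREBP partners, further Elovl genes, Adipoq, Ucp1 and Alb. Motifs were searched on both strands by exact match. Alternatives were probe set means, every probe set tested, dim genes left out, an intensity trend with robust prior, arrays centred, the replicate number as a block, cyclic loess and each array left out, when the lone array of a group is assumed to vary like the other group. The limma step was tested on simulated data. Its recovery there was 7.46% for a planted log2 shift of 0.5, 88.1% for 1 and 100% for 2. False ones made up 9.09% of its calls. Most true shifts near 0.5 would thus be missed, so a gene that did not pass is not shown to be unchanged.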

Additional observations from a re-analysis of the deposited data

How the results depend on the processing

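The median difference of the cholesterol genes lay between 0.22 and 0.29 under the 7 settings that keep all arrays, and that of the fatty acid genes between -0.038 and 0.022. Only probe set means, centred arrays and cyclic loess could move these medians. The other settings change the test or the genes tested, so they gave 0.28 and 0.0050 again. With dim genes left out, 4 of 20 cholesterol genes passed the threshold (Dhcr7 and Hsd17b7 added), against 1583 of all 10973 genes tested. With an intensity trend and robust prior, 6 of 20 passed (Hmgcs1 and Fdps added as well), against 1941 of all 18193 genes. The number was 0 when every probe set was tested (628 of 45037 over all) and 0 with the replicate number as a block (217 of 18193 over all). Before adjustment 8 and 7 cholesterol genes were higher at p under 0.05 in these settings (limma), against 8.17% of probe sets and 10.1% of genes. Of the 12 fatty acid genes, 2 passed with dim genes left out and 2 with the trend and robust prior, Elovl6 upwards beside Elovl3. With the block 0 passed (1 higher and 1 lower unadjusted). Of the further lists, 6 of 55 genes passed with dim genes left out and 11 of 70 with the trend and robust prior. When every probe set was tested 1 of 70 passed. With the block 0 of 70 did (9 higher and 7 lower unadjusted, against 10.1% and 9.68% of all genes). These counts are to be read beside those over all genes given above.

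Without 1 array the counts were 0 to 6 over all genes, 0 for the cholesterol genes, 0 for the fatty acid genes and 0 for the further lists, and the medians ranged from 0.15 to 0.43 and from -0.081 to 0.075. Lss was 0.015 as the mean of its probe sets. Genes near zero changed sign without 1 array, with ranges of -0.23 to 0.15 for Lss, -0.12 to 0.21 for Pmvk, -0.0077 to 0.072 for Srebf1, -0.14 to 0.055 for Acaca, -0.060 to 0.15 for Acly, -0.085 to 0.37 for Scd1 and -0.12 to 0.079 for Scd2. With fewer arrays or a block the fit has fewer degrees of freedom, and for the other settings the cause was not tested. Arrays with the same number deviated together at a correlation of 0.085 over genes, so the number was not taken as a pairing.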

Other observations

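Fatty acid oxidation genes, which break down what the synthesis genes make, had 0 of 17 measured members past the threshold, while 2 were higher and 0 lower at p under 0.05 before adjustment (limma; 10.8% and 10.7% of all genes), and had a median difference of 0.092. Cpt1a, which controls the entry of fatty acids into mitochondria, measured 9.49 and 9.66 with DMSO and 9.80 and 10.05 with GSI, a difference of 0.35 (limma, adjusted p = 0.171). Acadm, a dehydrogenase of medium chains, measured 9.03 and 9.02 with DMSO and 9.38 and 9.26 with GSI, a difference of 0.30 (limma, adjusted p = 0.134). Both lay higher on each GSI array than on either DMSO array, where 23.7% of all genes did so. On these genes GSI replicate 2 lay above GSI replicate 1 in 14 of 17, while in the cholesterol genes GSI replicate 1 was the higher array in 18 of 20; the difference was not tested.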
